A study of Zea mays with 6 samples.

Results

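Zm00001d038703 is a protein-coding gene of maize that the deposited table describes as an O-methyltransferase ZRP4. It is 1 of 45953 genes in that table, and it was chosen by its measured difference in FPKM and counts, its level being far lower under negative pressure irrigation (NPI) than in the comparison group. Its own values are therefore given as a description and without a test. The gene lies on chromosome 6, from 162999184 to 163000694 on the minus strand in the coordinates of the deposited table, with 3 annotated transcripts. No source used here names the build. The table describes 17 other genes in the same words, and these serve as its context. Its annotation terms are O-methyltransferase activity that depends on S-adenosylmethionine, protein dimerization and synthesis of aromatic compounds.

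O-methyltransferases of plants move a methyl group from S-adenosylmethionine to a hydroxyl group of a small molecule, among them precursors of lignin and suberin, flavonoids and defence compounds. ZRP4 was first described as a maize mRNA that accumulates mainly in roots, in the region around the endodermis, and its product was linked to suberin because of that location. The name in the table is that of a family. Zm00001d049020 on chromosome 4 carries the gene name root preferential1, and Zm00001d049179, also on chromosome 4, is named benzoxazinone synthesis7. In the RefSeq gene table of maize, ZRP4 is a synonym of 2 genes, both on chromosome 4, and 1 of them also has the synonym Bx7. That table holds none of the identifiers used in the deposited file, so Zm00001d038703 could not be matched to an entry in it.

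RNA was taken from root tips of maize plants. There were 3 libraries from plants under NPI, in which suction of the soil draws water from a supply kept under negative pressure, and 3 from plants in a group abbreviated DI. One label spells DI out as deficit irrigation and another as drip irrigation, so the abbreviation is kept. The labels used here give no maize line, plant age or treatment length, and they leave unstated whether each library had its own plants or pots. Any p-value therefore measures the spread between libraries alone, and this spread may be technical.

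Total estimated counts ran from 59900871 to 65917999 in the NPI libraries and from 57792439 to 71957443 in the DI libraries. Across the 21902 tested genes, those with a mean of at least 1 FPKM (fragments scaled to transcript length and library size), the NPI libraries correlated with one another at 0.814 to 0.901 and the DI libraries at 0.936 to 0.957 (Pearson's r of log2(FPKM + 1) across genes, which are not independent replicates). NPI-2 stood apart: it correlated with the other 2 NPI libraries at 0.814 to 0.838 and with the DI libraries at 0.854 to 0.882.

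Zm00001d038703 had 0.76, 0.78 and 1.07 FPKM in NPI-1, NPI-2 and NPI-3, against 80.47, 58.05 and 46.48 FPKM in DI-1, DI-2 and DI-3. All NPI libraries were low and all DI libraries were high, and the groups did not overlap. The mean FPKM was 0.87 ± 0.173 under NPI, against 61.7 ± 17.3 under DI (SD, n = 3 for both), a ratio of DI to NPI of 70.9. The edgeR fit across all tested genes gave a log2 difference, NPI minus DI, of -6.05 (SE 0.394). NPI-2, the NPI library that correlated best with DI-1 and DI-2 over all tested genes, was about as low for this gene as NPI-1.

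Reads were assigned to the gene in every NPI library. Its estimated counts were 79, 88 and 118 in NPI-1 to NPI-3, against 7719, 6116 and 5594 in DI-1 to DI-3. Scaled to library size, these were 1.32, 1.33 and 1.83 CPM (counts scaled to library size) in NPI and 133.6, 96.9 and 77.7 CPM in DI. The SD of FPKM was 19.9% of the mean in NPI, against 28% in DI. Other ZRP4 genes had far more counts in some NPI libraries, such as 24298 for Zm00001d048625 in NPI-3, and since the sharing of reads between similar copies is not known, the low NPI counts of Zm00001d038703 are uncertain. In bulk RNA, fewer cells that express the gene and less RNA per cell cannot be told apart.

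**Figure D1:**
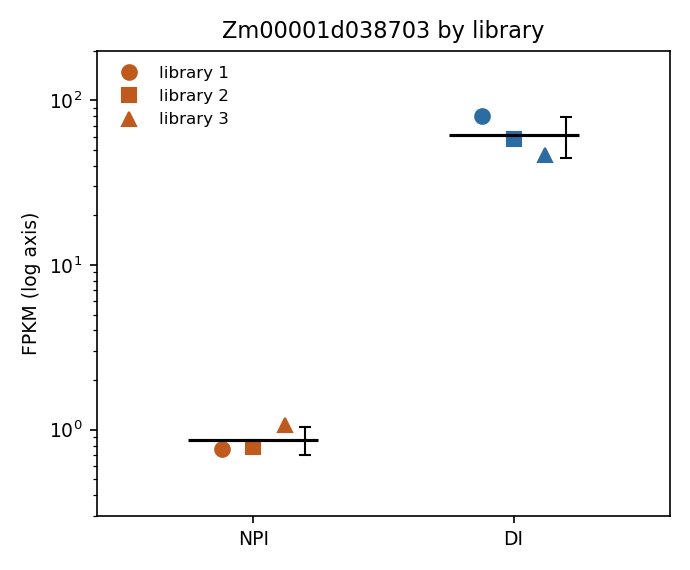
FPKM of Zm00001d038703 in each library on a log axis, NPI at the left and DI at the right. Points are libraries, horizontal lines are group means and bars are ± SD (n = 3 each). The NPI libraries lie between 0.76 and 1.07 FPKM and the DI libraries between 46.48 and 80.47 FPKM.

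The distance between the groups was wide beside other genes. The highest NPI library and the lowest DI library were 43.4-fold apart. By that measure, the lowest DI value over the highest NPI value, the gene ranked 1 among the 21888 tested genes whose highest NPI value was above 0. Tested genes at 0 in all NPI libraries have no such ratio and were not ranked. Fitted log2 differences over all tested genes reached -12.92, lower than that of Zm00001d038703. This gene was chosen for its difference between the groups, so the rank describes the choice. In NPI, 97.5% of the tested genes had a higher mean FPKM, and in DI 7.04% did. The gene passed the filter through its DI values, so its low place in NPI among tested genes was set by the filter. Of all 45953 genes, tested or not, 48.3% had a higher mean FPKM in NPI. Zm00001d038703 was also ranked among 41 O-methyltransferase genes, made up of the ZRP4 genes, those of the wider list below and 4 benzoxazinoid genes. By mean FPKM it ranked 27 in NPI and 7 in DI.

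None of the other ZRP4 genes passed the test. Of the 17 others, 12 had a mean of at least 1 FPKM and were tested, and 5 did not. The 12 all missed the threshold of the edgeR quasi-likelihood test at a Benjamini-Hochberg adjusted p of 0.05 over all tested genes, with adjusted p from 0.133 to 0.936. Over all tested genes, 0.00913% passed as higher in NPI and 0.00457% as lower, which is 2 genes and 1 gene. The 1 lower gene was Zm00001d038703 itself, which was chosen for its difference. With so few calls over all genes, 0 of the 12 says little about the family. At an unadjusted p under 0.05, 1 of the 12 was higher and 1 lower, beside 12.3% and 8.52% of all tested genes, and DESeq2 called 0 higher and 1 lower, beside 6.91% and 4.57% of the genes it tested. The FPKM ranges of the groups overlapped in 11 of the 12. In the remaining gene NPI lay below DI, as it did in 13.7% of all tested genes. The median log2 difference of the 12 was 0.30, beside 0.07 over all tested genes, and their median SE was 1.11, beside 0.396.

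Zm00001d038703 was a minor member of the family in NPI and a leading one in DI. Summed over all 18 genes, FPKM was 123.1, 163.3 and 552.9 in NPI-1 to NPI-3, against 280.9, 227.4 and 275.0 in DI-1 to DI-3. The share of that sum held by Zm00001d038703 was 0.617%, 0.478% and 0.194% in the NPI libraries, against 28.6%, 25.5% and 16.9% in the DI libraries. Within the 18 it ranked 9, 8 and 11 in NPI-1 to NPI-3 and 1, 2 and 3 in DI-1 to DI-3. The other 17 genes summed to 278.9 ± 237.2 FPKM under NPI, against 199.4 ± 29.6 under DI (SD, n = 3 for both), and their NPI value came mainly from NPI-3, at 551.8 FPKM, beside 122.4 and 162.5 in NPI-1 and NPI-2. Without Zm00001d048625, the group means were close beside their spread, at 156.1 ± 74.3 FPKM under NPI, against 162.2 ± 33.7 under DI.

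**Figure D2:**
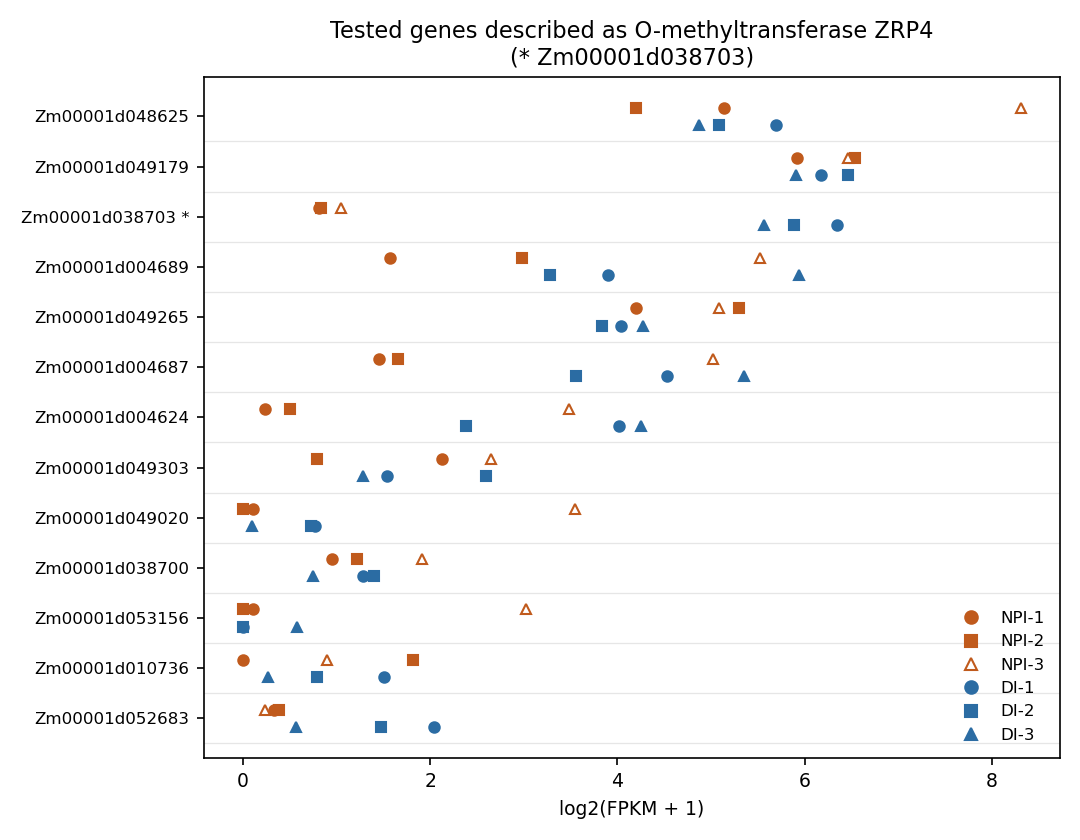
log2(FPKM + 1) of the 13 tested genes described as O-methyltransferase ZRP4, ordered by mean FPKM, with 1 symbol per library. NPI libraries are drawn above DI libraries in each row, and NPI-3 has open symbols. In the row of Zm00001d038703 the NPI and DI libraries lie far apart, while in 11 of the other 12 rows they overlap.

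Several ZRP4 genes of chromosome 4 owed their NPI mean to NPI-3. Zm00001d048625, which the table assigns to the pathway of stilbenoids and gingerol, had 34.36, 17.37 and 316.52 FPKM in NPI-1 to NPI-3, against 50.63, 32.87 and 28.23 in DI-1 to DI-3. Its log2 difference was 1.91 (SE 1.06, edgeR adjusted p = 0.345), and without NPI-3 it was -0.50. Root preferential1 (Zm00001d049020) had 0.08, 0 and 10.73 FPKM in the NPI libraries, against 0.71, 0.65 and 0.07 in the DI libraries. The log2 difference of 3.14 became -3.35 without NPI-3. Zm00001d053156 had 0.08, 0 and 7.16 FPKM in NPI, against 0, 0 and 0.49 in DI, and its log2 difference was 4.03, or -1.99 without NPI-3. In each of these genes NPI-3 was the highest of the 6 libraries. NPI-3 was the highest NPI library in 8 of the 12 tested ZRP4 genes, beside 23.2% of all tested genes. For Zm00001d038703 NPI-3 was also the highest of the 3, but only at 1.07 FPKM.

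The 3 ZRP4 genes of chromosome 2 split the NPI libraries. Zm00001d004624 had 0.18, 0.42 and 10.16 FPKM in NPI-1 to NPI-3, against 15.18, 4.20 and 18.05 in DI-1 to DI-3. Zm00001d004687 had 1.74, 2.15 and 31.51 FPKM, against 22.18, 10.75 and 39.87. Herbicide safener binding protein1 (Zm00001d004689), 314.7 kb from the end of Zm00001d004687, had 1.97, 6.92 and 45.10 FPKM in NPI, against 13.90, 8.73 and 60.24 in DI. NPI-1 and NPI-2 lay below every DI library in all 3 genes, while NPI-3 lay within the DI range. The fitted log2 difference was -1.61 in the first, -0.87 in the second and -0.47 in the third (edgeR adjusted p = 0.545, 0.703 and 0.854). That of Zm00001d004689 changed sign without DI-3 (0.85) and without NPI-1 (0.07). Zm00001d038703 had no such split, since its NPI-3 value of 1.07 FPKM lay far below the lowest DI library.

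Benzoxazinone synthesis7 and 1 further gene of chromosome 4 were well expressed in every library and had positive log2 differences that did not pass the test. Benzoxazinone synthesis7 (Zm00001d049179), which methylates an intermediate of the defence compound DIMBOA, had 59.28, 91.68 and 87.39 FPKM in NPI-1 to NPI-3, against 71.48, 87.33 and 58.94 in DI-1 to DI-3. The groups overlapped, and the log2 difference was 0.20 (SE 0.276, edgeR adjusted p = 0.709). Zm00001d049265 had 17.32, 38.38 and 32.86 FPKM in NPI, against 15.38, 13.32 and 18.27 in DI. NPI-1 lay inside the DI range and the other 2 NPI libraries above it, with a log2 difference of 0.97 (SE 0.335, edgeR adjusted p = 0.18).

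Only 1 other tested ZRP4 gene had all NPI libraries below all DI libraries. Zm00001d052683, on chromosome 4, had 0.26, 0.31 and 0.18 FPKM in NPI-1 to NPI-3, against 3.10, 1.78 and 0.48 in DI-1 to DI-3. DI-3 was close to the NPI libraries. The log2 difference was -2.74 (SE 0.762, edgeR adjusted p = 0.133), and DESeq2 called it. The next gene on the chromosome with this description, Zm00001d052684, was below the filter and had 2.48, 0.17 and 0.84 FPKM in NPI, against 0.05, 1.06 and 0.92 in DI. Zm00001d049303 and Zm00001d010736 were low and mixed. Zm00001d049303 had 3.36, 0.73 and 5.27 FPKM in NPI, against 1.90, 5.03 and 1.43 in DI, a log2 difference of 0.32 (edgeR adjusted p = 0.853). Zm00001d010736, on chromosome 8, had 0, 2.53 and 0.86 FPKM in NPI, against 1.85, 0.73 and 0.20 in DI, a log2 difference of 0.27 (edgeR adjusted p = 0.936). The groups overlapped in both. Without NPI-3 the difference of Zm00001d049303 was -0.39, and that of Zm00001d010736 was -0.20 without DI-3 and -0.89 without NPI-2. Apart from Zm00001d052684, the untested genes were Zm00001d024120, with no counts in any library, Zm00001d049181 and 2 genes beside Zm00001d038703. The highest value of any untested ZRP4 gene in any library was 2.48 FPKM.

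On chromosome 6, Zm00001d038703 is the last of 4 ZRP4 genes on the minus strand. Zm00001d038699, Zm00001d038700 and Zm00001d038702 end 182.3, 145.1 and 82.4 kb before its start coordinate. All 3 were low in both groups. Zm00001d038699 had 0.27, 0.34 and 0.39 FPKM in NPI-1 to NPI-3, against 1.34, 0.63 and 0.32 in DI-1 to DI-3. Zm00001d038700 had 0.93, 1.32 and 2.76 FPKM in NPI, against 1.44, 1.63 and 0.68 in DI, and a log2 difference of 0.54 (SE 0.635, edgeR adjusted p = 0.662), or -0.15 without NPI-3. In both genes the groups overlapped.

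The nearest of the cluster, Zm00001d038702, was the only other chromosome 6 copy whose groups did not overlap. Its estimated counts were 5, 0 and 8 in NPI-1 to NPI-3, against 44, 28 and 30 in DI-1 to DI-3. In the DI libraries those counts were 0.57%, 0.458% and 0.536% of the counts of Zm00001d038703, and in NPI-1 and NPI-3 6.33% and 6.78%. No source used here says how reads were divided between similar copies, so such low counts beside a similar gene with far more reads are uncertain, and the gene was below the filter and not tested.

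No tested gene around the cluster had a difference of this size. On the other side, the nearest gene is the transcription factor gene VOZ1 (Zm00001d038704), 77.6 kb away by start coordinate. It had 10.09, 9.09 and 8.13 FPKM in NPI-1 to NPI-3, against 12.37, 10.04 and 9.69 in DI-1 to DI-3. The groups overlapped, with a log2 difference of -0.17 (SE 0.227, edgeR adjusted p = 0.7). Of the 10 nearest genes in the table, 5 on each side, 4 had no counts in any library. The remaining ones besides VOZ1 and the cluster were Zm00001d038706, which has no description, with a log2 difference of 1.70 (edgeR adjusted p = 0.304), and Zm00001d038707, which was below the filter. Within 0.5 Mb on each side there were 46 other genes, of which 22 were tested. None passed in edgeR (lowest adjusted p = 0.134), beside 0.00913% higher and 0.00457% lower of all tested genes. Their log2 differences ran from -0.42 to 2.35. The median was 0.56, beside 0.07 over all tested genes. NPI lay above DI in every library in 4 of the 22, beside 13.0% of all tested genes. It lay below DI in none of them, beside 13.7%.

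**Figure D3:**
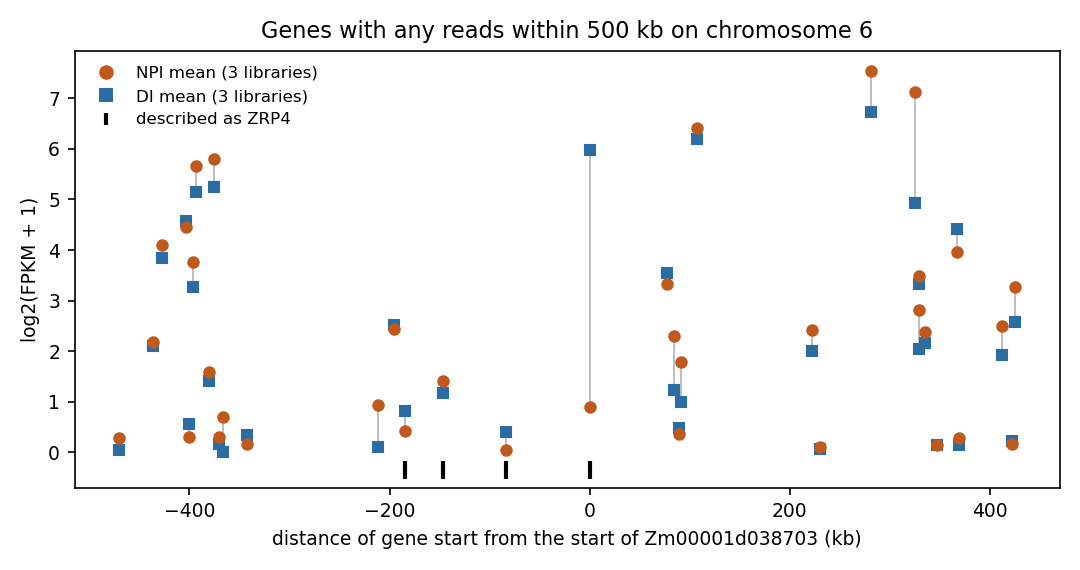
Mean FPKM, as log2(FPKM + 1), of genes with any reads within 0.5 Mb of Zm00001d038703 on chromosome 6, against the distance of their starts in kb. Circles are NPI means, squares are DI means (3 libraries each) and ticks at the bottom mark the 4 genes described as ZRP4. At distance 0 the NPI mean lies far below the DI mean, and no other gene shown has such a gap in that direction.

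Other O-methyltransferase genes had more positive than negative log2 differences, and none passed the test. The list takes in enzymes of lignin precursors, of flavones and of resorcinol lipids, together with an enzyme that methylates the polysaccharide xylan. Of its 19 genes, 10 were tested. In edgeR 0 passed in either direction, beside 0.00913% higher and 0.00457% lower of all tested genes. With shares so low, an edgeR count of 0 in this or a later list says little about the list. Of the 10 genes, 8 had positive log2 differences, beside 54% of all tested genes. The median was 0.94, beside 0.07 over all tested genes. At an unadjusted p under 0.05, 5 were higher and 0 lower, beside 12.3% and 8.52% of all tested genes, and DESeq2 called 4 higher and 0 lower, beside 6.91% and 4.57%. The ranges did not overlap in 5 of the 10, 3 with NPI above DI and 2 below, beside 13.0% and 13.7% of all tested genes. Without NPI-2, 3 of the 10 passed as higher in edgeR, beside 6.65% of all tested genes.

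The members with the smallest p on the higher side were a glucuronoxylan and a lignin enzyme. The glucuronoxylan 4-O-methyltransferase gene Zm00001d023950 had 13.21, 5.82 and 16.54 FPKM in NPI-1 to NPI-3, against 3.49, 1.78 and 2.39 in DI-1 to DI-3 (log2 difference 2.32, edgeR adjusted p = 0.107, or 0.0271 without NPI-2). Caffeoyl-CoA O-methyltransferase gene Zm00001d052841, of a family that methylates the precursor of guaiacyl lignin, had 13.03, 2.42 and 54.83 FPKM, against 1.18, 0.45 and 2.15 (log2 difference 4.37, edgeR adjusted p = 0.134, or 0.0325 without NPI-2). All NPI libraries lay above all DI libraries in both. On the lower side, the resorcinol O-methyltransferase gene Zm00001d051934 had 18.98, 15.35 and 25.22 FPKM in NPI, against 33.30, 29.76 and 33.20 in DI (log2 difference -0.60, edgeR adjusted p = 0.301). Zm00001d051870, of an O-methyltransferase family, had 13.05, 13.13 and 2.54 FPKM in NPI, against 15.92, 16.22 and 13.94 in DI (log2 difference -0.67, edgeR adjusted p = 0.502). Even in these 2 genes with ranges apart, the difference was small beside that of Zm00001d038703.

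The enzymes that supply and recycle the methyl donor S-adenosylmethionine showed differences that were small beside that of Zm00001d038703. Of 16 genes, 11 were tested and 0 passed in edgeR, beside 0.00913% higher and 0.00457% lower of all tested genes. At an unadjusted p under 0.05, 0 were higher and 0 lower, beside 12.3% and 8.52% of all tested genes. DESeq2 called 0 in either direction, beside 6.91% and 4.57% of the genes it tested. The ranges lay apart with NPI above DI in 2 and below in 2, beside 13.0% and 13.7% of all tested genes. The median log2 difference was 0.23, beside 0.07 over all tested genes, and the values ran from -0.95 to 1.02. Adenosine kinase, which removes the adenosine left over from methylation, gave both extremes. Zm00001d003017 averaged 3.48 ± 0.821 FPKM under NPI, against 1.76 ± 0.858 under DI (SD, n = 3 for both; edgeR adjusted p = 0.245). Zm00001d051157 averaged 26.7 ± 12.7 FPKM under NPI, against 55 ± 15.6 under DI (SD, n = 3 for both; edgeR adjusted p = 0.267), and all its NPI libraries lay below all DI libraries. The other 2 named by rank were the adenosine kinase gene Zm00001d017271, with a log2 difference of -0.58, and the methionine synthase gene Zm00001d013644, with 0.67 (edgeR adjusted p = 0.412 and 0.36). Their groups did not overlap, with NPI below DI in the first and above in the second.

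**Figure D4:**
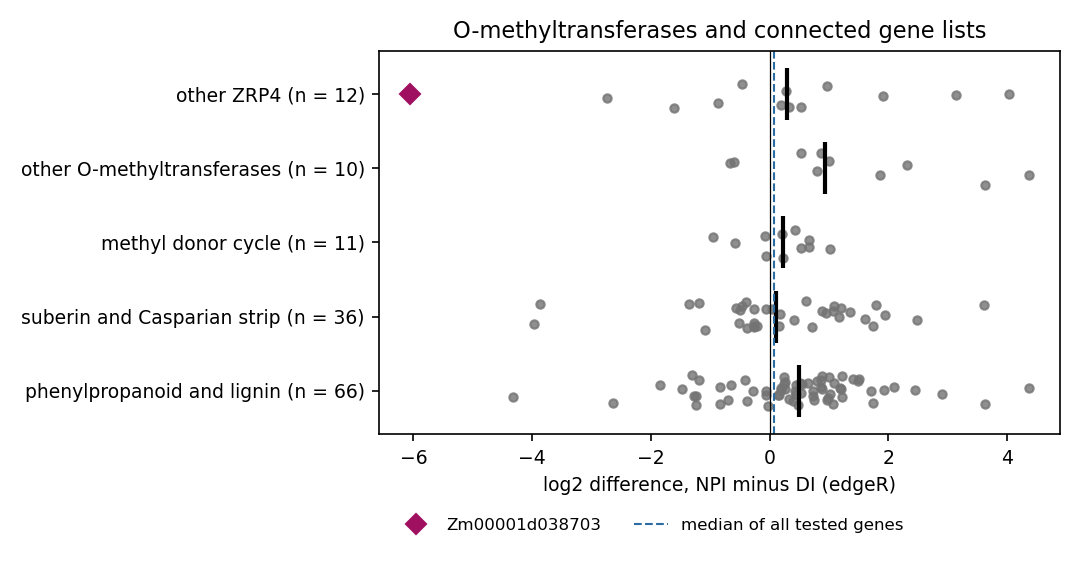
log2 differences, NPI minus DI, from the edgeR fit for the tested genes of 5 lists, with each point a gene and each black bar the median of a list. The diamond is Zm00001d038703 at -6.05, which lies below every gene of the 5 lists, and the dashed line is the median of all tested genes at 0.07.

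Genes drawn by name for the suberin and Casparian strip programme linked with ZRP4 had a median log2 difference near that of all genes. A shared name does not place each gene in that wall programme. Of 84 genes, most of them CASP-like membrane proteins and ketoacyl-CoA synthases, 36 were tested. In edgeR 0 passed, beside 0.00913% higher and 0.00457% lower of all tested genes. There were 19 positive and 17 negative log2 differences, with a median of 0.10, beside 54% positive and 0.07 over all tested genes. At an unadjusted p under 0.05, 7 were higher and 1 lower, beside 12.3% and 8.52% of all tested genes, and DESeq2 called 2 higher and 1 lower, beside 6.91% and 4.57%. The ranges lay apart with NPI above DI in 7 and below in 4, beside 13.0% and 13.7%. CASP-like protein 15 (Zm00001d014299) had 62.94, 54.48 and 57.45 FPKM in NPI-1 to NPI-3, against 27.10, 28.05 and 31.26 in DI-1 to DI-3 (log2 difference 1.09, edgeR adjusted p = 0.0901). In CASP-like protein 1D1 (Zm00001d019457) NPI lay below DI, with 0.22, 0.39 and 1.49 FPKM in NPI, against 13.60, 3.01 and 17.27 in DI (log2 difference -3.87, edgeR adjusted p = 0.118). The groups did not overlap in either gene. CASP-like protein 8 (Zm00001d023936) had a log2 difference of 2.49 and the ketoacyl-CoA synthase gene Zm00001d047931 one of -1.18 (edgeR adjusted p = 0.128 and 0.309). Without NPI-2, 2 genes of the list passed as higher and 0 as lower, beside 6.65% and 5.19% of all tested genes.

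The phenylpropanoid and lignin genes, which provide phenolic substrates of O-methyltransferases, had more positive than negative log2 differences. Of 114 genes 66 were tested, with 0 past the threshold in edgeR, beside 0.00913% higher and 0.00457% lower of all tested genes. There were 47 positive log2 differences, and the median was 0.49. The positive share was 71.2%, beside 54% of all tested genes, whose median was 0.07. At an unadjusted p under 0.05, 11 were higher and 5 lower, beside 12.3% and 8.52% of all tested genes, and DESeq2 called 8 higher and 4 lower, beside 6.91% and 4.57%. The ranges lay apart with NPI above DI in 9 and below in 9, beside 13.0% and 13.7% of all tested genes. Hydroxycinnamoyltransferase5 (Zm00001d003129) had 11.61, 9.82 and 10.56 FPKM in NPI-1 to NPI-3, against 4.70, 3.50 and 3.79 in DI-1 to DI-3 (log2 difference 1.49, edgeR adjusted p = 0.0716). A gene of the laccase family, whose enzymes couple lignin monomers, had 0.48, 0.35 and 1.00 FPKM in NPI, against 16.48, 2.96 and 20.27 in DI (Zm00001d052243, log2 difference -4.33, edgeR adjusted p = 0.0829). Both had groups that did not overlap, and so had the cinnamyl alcohol dehydrogenase genes Zm00001d020401, at 1.93, and Zm00001d045043, at -1.20 (log2 differences, edgeR adjusted p = 0.134 and 0.138). Without NPI-2, 9 genes of the list passed as higher and 1 as lower, beside 6.65% and 5.19% of all tested genes. The caffeoyl-CoA O-methyltransferases belong to this list and to the O-methyltransferase list, so the counts are not separate.

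The tissue label was checked against marker genes, whose summed FPKM also moved with the groups in part. The 4 root cap genes summed to 28, 140.7 and 39.7 FPKM in NPI-1 to NPI-3, against 231.2, 156.5 and 110.5 in DI-1 to DI-3. All 3 tested root cap genes had negative log2 differences, with a median of -2.99. None passed in edgeR, beside 0.00913% higher and 0.00457% lower of all tested genes. In NPI-2 the sum lay within the DI range, and 114.58 of it came from root cap protein1 (Zm00001d036091). That gene gave 27.53 FPKM in NPI-1 and 38.72 in NPI-3, nearly all of the sum in both. The root cap-specific gene Zm00001d045420 had 24.89 FPKM in NPI-2, beside 0.48 and 0.97 in NPI-1 and NPI-3, against 106.16, 59.48 and 31.92 in DI, so that all NPI libraries lay below all DI libraries. Cyclin and replication genes of dividing cells summed to 169.6 to 283.4 FPKM in NPI and 238.5 to 292.4 in DI. Of their 24 tested members, 6 had positive log2 differences, with a median of -0.34. None passed in edgeR, beside the same 0.00913% higher and 0.00457% lower. NPI lay below DI in 6 and above in 0, beside 13.7% and 13.0% of all tested genes. Both lists thus had reads in each library, but those of the root cap list in NPI-1 and NPI-3 came mainly from 1 gene. Of the dividing cell genes, 9 of 35 had no counts anywhere, and no root cap gene was without counts.

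A further list was drawn by name for the endodermis, the region with which ZRP4 has been linked. A shared name does not make each gene a marker of that tissue. Of its 18 tested genes 15 had positive log2 differences, beside 54% of all tested genes. None passed in edgeR, beside 0.00913% higher and 0.00457% lower of all tested genes. NPI lay above DI in every library in 7 of the 18 and below in 2, beside 13.0% and 13.7% of all tested genes. The 56 genes of that list, most of them GRAS factors named scarecrow-like, summed to 157.5, 156.8 and 93.4 FPKM in NPI, against 75.8, 106.9 and 96.3 in DI, and 13 had no counts. Scarecrow1 (Zm00001d052380), which specifies the endodermis and was named after its values were seen, had 5.48, 6.81 and 5.03 FPKM in NPI, against 1.11, 1.84 and 0.76 in DI (log2 difference 2.29, edgeR adjusted p = 0.0716). A gene described as protein SCARECROW, Zm00001d003657, had NPI below DI, with 0.35, 0.11 and 1.12 FPKM in NPI, against 2.30, 2.33 and 1.76 in DI (log2 difference -1.84, edgeR adjusted p = 0.271). Of the 6 genes named Casparian strip membrane protein none was without counts, 1 was tested, and the highest value was 3.15 FPKM. Root hair genes summed to 96.7 to 147.3 FPKM in NPI and 133.0 to 151.7 in DI, leaf genes to 95.2 to 114.2 and 78.1 to 130.1. Xylem and secondary wall genes summed to 747.1, 360.3 and 898.1 FPKM in NPI and to 383.5 to 478.5 in DI. Positive log2 differences were found in 23 of 28 tested xylem and secondary wall genes, 9 of 19 leaf genes and 4 of 11 root hair genes. In the same order, NPI lay above DI in every library in 5, 5 and 0 genes, beside 13.0% of all tested genes. NPI lay below DI in 0, 0 and 1, beside 13.7%. The part of any of these tissues in the level of Zm00001d038703 was not tested.

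The likeness of other genes to Zm00001d038703 was taken over the 6 libraries. Pearson's r of log2(FPKM + 1) was at least 0.9 for 848 of 21901 other tested genes, or 3.87%, and at most -0.9 for 915, or 4.18%. With 2 groups of 3 libraries, any gene with a gap between the groups that is wide beside its spread within them has a high r, so no p is given. The highest described gene was Zm00001d009401, a DNAJ domain protein (r = 0.9983), with 8.55, 9.26 and 8.78 FPKM in NPI-1 to NPI-3, against 29.78, 26.75 and 26.18 in DI-1 to DI-3. The next were Zm00001d051671, a WD repeat protein (r = 0.9982), Zm00001d017620, named tobamovirus multiplication protein 3 after its Arabidopsis namesake that tobamoviruses need to multiply (r = 0.9973), Zm00001d016156, a putative callose synthase (r = 0.9959), and Zm00001d051121, a cupin (r = 0.9950).

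All 5 genes had NPI libraries below DI libraries, and all 5 differences were smaller than that of Zm00001d038703. Their log2 differences were -1.57, -1.98, -1.19, -3.67 and -0.95. The callose synthase gene, of a family that makes the glucan plugs of cell walls, came nearest in size, with 0.13, 0.10 and 0.24 FPKM in NPI, against 2.31, 2.41 and 1.84 in DI. None of the 5 passed in edgeR (adjusted p = 0.0652, 0.0613, 0.0894, 0.0715 and 0.118), where 0.00457% of all tested genes passed as lower. DESeq2 called all 5 lower, beside 4.57% of the genes it tested. Without NPI-2, all of them except the cupin gene passed as lower in edgeR, beside 5.19% of all tested genes. The 5 were chosen by r, which is high where the groups lie apart, so these calls partly describe the choice. Among the 12 other tested ZRP4 genes, r ran from -0.75 for Zm00001d049265 to 0.82 for Zm00001d052683.

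A measure that takes in size, the Euclidean distance between centred log2(FPKM + 1) profiles, gave another 5 genes, with none shared. The nearest was the ABC transporter G family member 40 gene Zm00001d020134 (distance 2.14), whose Arabidopsis namesake imports abscisic acid, with 2.51, 1.48 and 2.77 FPKM in NPI-1 to NPI-3, against 31.31, 34.83 and 30.85 in DI-1 to DI-3. It was followed by Zm00001d044541, an SPX domain protein of phosphate sensing, Zm00001d046812, a chaperone of the dnaJ family, Zm00001d049433, a germin-like protein, and Zm00001d011734, an inorganic pyrophosphatase. Their distances were 2.18, 2.47, 2.56 and 2.6. Among the 5, Zm00001d046812 had the log2 difference nearest to that of Zm00001d038703, at -6.25, with 0.28, 0.08 and 0.01 FPKM in NPI, against 6.59, 12.62 and 11.49 in DI (edgeR adjusted p = 0.0715).

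**Figure D5:**
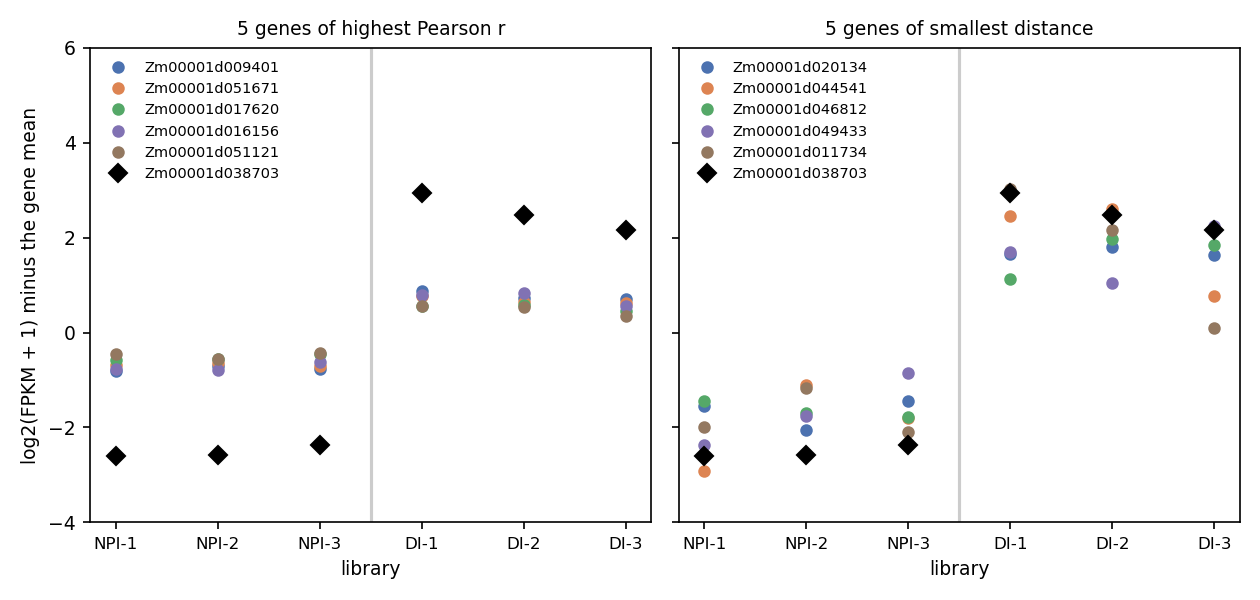
log2(FPKM + 1) minus the mean of the gene over the 6 libraries, for Zm00001d038703 (diamonds) and the 5 described genes of highest Pearson r (left) or smallest distance (right), with NPI libraries left of the grey line and DI libraries right of it. The genes at the left have NPI below DI and lie closer to 0 than Zm00001d038703, while those at the right reach a similar size and scatter more between libraries.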

How the data were processed

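Messenger RNA of maize root tips was measured in 6 libraries, 3 NPI and 3 DI, numbered by their titles; the description of DI-2 gives it the repeat number of DI-3. The submitters' processing notes name FastQC 0.10.1, HISAT2 2.0, StringTie 1.3.4 and edgeR, without their roles. No source used here names the genome build or says how strand was handled. The authors deposited one table with estimated counts and FPKM per gene and library. The deposited estimated counts are already whole numbers. Deposited FPKM values were scaled for transcript length and library size by the authors, and these served for levels, the filter and likeness. Library totals ran from 57792439 to 71957443 estimated counts, so counting error is small beside the spread between libraries for all but genes of few counts. No sequences were used here.

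edgeR 4.0.16 (R 4.3.3; TMM factors, quasi-likelihood test, two-sided, NPI minus DI, no covariate) was fitted to the 21902 genes with a mean of at least 1 FPKM, with Benjamini-Hochberg adjustment over all of them and a threshold of 0.05. Standard errors were taken as the absolute log2 difference over the square root of F. Alternatives were RLE factors, no filter, DESeq2 1.42.0, limma 3.58.1 (with an intensity trend) on log2(FPKM + 1) and log2(FPKM + 0.1), a replicate block, and leaving out each library. The fits were tested on simulated counts.

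The gene and the lists were chosen with earlier results of these data known. Lists came from patterns on names and descriptions. The genes named were the ZRP4 genes, the 5 nearest genes on each side, the 5 described genes of highest r, and the 2 higher and 2 lower members of smallest p in each other list. Zm00001d052380, Zm00001d045420, Zm00001d036091, the 4 benzoxazinoid genes and the 5 genes of smallest distance were added with their values seen, as was Zm00001d003657. Figures were drawn with matplotlib 3.10.9.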

Additional observations from a re-analysis of the deposited data

How the results depend on the processing

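The log2 difference of Zm00001d038703 was negative under every alternative run, which its choice by this difference and the gap between its groups made near certain. It stayed within 1 SE of -6.05 except with limma on log2(FPKM + 1), where it was -5.03 (the added 1 shrinks low values), and ran from -6.31 to -5.81 when single libraries were left out. Counts of genes past the threshold depended strongly on the fit: 2 higher and 1 lower in the edgeR fit, against 1499 and 992 with DESeq2, 99 and 39 with limma at a pseudocount of 1, 99 and 30 at 0.1, and 13 and 5 without the filter. Leaving out single libraries gave 0 to 1457 higher and 0 to 1136 lower, the highest without NPI-2. Leaving out NPI-1 gave 1 and 0, NPI-3 gave 1 and 2, and each single DI library gave 0 and 0, where the edgeR fit of all libraries had 2692 higher and 1866 lower at an unadjusted p under 0.05. The cause was not tested. The replicate block gave 1 higher and 0 lower, and a log2 difference of -6.05 for Zm00001d038703. Deviations from the group means correlated at -0.279, 0.200 and 0.199 between same-numbered libraries, beside -0.397 to 0.301 between libraries of other numbers. With 3 libraries a group, these values cannot settle whether same-numbered samples were paired. The description of DI-2 gives it another number than its title. Of the other ZRP4 genes, 0 passed as higher and 0 as lower under every alternative except DESeq2, which called 1 lower. The other O-methyltransferases had 4 higher with DESeq2 and 0 to 3 higher with single libraries left out. Suberin and Casparian strip genes had 2 higher and 1 lower with DESeq2 and 0 to 2 higher with libraries left out. Phenylpropanoid and lignin genes had 8 and 4 with DESeq2, and 0 to 9 higher and 0 to 1 lower with libraries left out. The 5 genes nearest by r shared 0 with the 5 nearest by distance. Of 420 values for 35 named genes, 383 kept direction and side of the threshold, 25 passed in addition (15 of them with DESeq2, 8 without NPI-2) and 12 changed sign, all in 7 ZRP4 genes. Without NPI-3 the log2 difference was -0.15 for Zm00001d038700, -0.50 for Zm00001d048625, -3.35 for Zm00001d049020, -0.39 for Zm00001d049303 and -1.99 for Zm00001d053156, the low ends of ranges over left-out libraries that reached 0.83, 2.44, 3.72, 1.02 and 11.09, the last with both DI libraries left at 0 and so no measure of size. Zm00001d049020 was at -2.04 with the replicate block. Zm00001d004689 was at 0.85 without DI-3 and 0.07 without NPI-1, in a range from -2.68. Zm00001d010736 was at -0.31 and Zm00001d049303 at -0.01 with limma at a pseudocount of 0.1, and Zm00001d010736 at -0.20 without DI-3 and -0.89 without NPI-2, in a range up to 1.28. With 3 libraries a group, the median SE of 1.11 on the log2 scale limits what can be detected in the other tested ZRP4 genes.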

Other observations

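Another set of O-methyltransferases, those that methylate the benzoxazinoid glucosides of maize defence, was missed by the name pattern and was looked at with the values in view. Benzoxazinone synthesis10 (Zm00001d029359) had 230.63, 110.72 and 358.13 FPKM in NPI-1 to NPI-3, against 478.98, 436.75 and 547.21 in DI-1 to DI-3, and benzoxazinone synthesis14 (Zm00001d004921) had 40.10, 24.84 and 60.82 FPKM, against 78.48, 82.51 and 89.42. NPI lay below DI in every library for both, as in 13.7% of all tested genes. Neither passed in edgeR (log2 differences -0.94 and -0.88, adjusted p = 0.329 and 0.261), where 0.00457% of all tested genes passed as lower. Benzoxazinone synthesis11 (Zm00001d029356) and benzoxazinone synthesis12 (Zm00001d029353) overlapped between the groups. Their log2 differences were -0.40 and -0.10, with edgeR adjusted p of 0.725 and 0.945. NPI-2 was the lowest of the 6 libraries in all 4 genes.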
